A study of Mus musculus with 6 samples.

Results

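The GATA transcription factor genes Gata1 to Gata6 were followed in the embryonic mouse lung. They were found as all probe sets (groups of short oligonucleotides against 1 transcript) whose single gene symbol in the platform's annotation is one of these 6 names. This gave 10 probe sets of 12488 on the array, for 6 of 8251 genes with a single symbol. The family was chosen by the regional signals of Gata5, which was already known to differ between the regions in these data. The regional values of all members are therefore given as a description, without p-values. RNA came from tissue dissected at stage E11.5, and each region was measured on 3 arrays. The branching region was taken from the left and the right lung together. The non-branching region was made up of the main bronchi of both sides and some of the trachea. The labels give no strain, genotype, sex or treatment for either region, and do not say whether replicates came from separate embryos, so the spread between arrays may be technical. Each sample is a mixture of cell types, so a difference between regions can reflect fewer cells of a type or less RNA per cell, which cannot be told apart here.

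GATA factors are zinc finger proteins that bind DNA at sites with the letters GATA. GATA1 and GATA2 are best known from blood, where GATA1 drives red blood cell and megakaryocyte genes and GATA2 acts in blood progenitors, mast cells and endothelium. GATA3 is known from T cells and sympathetic neurons. GATA4, GATA5 and GATA6 act in the heart and in tissues derived from endoderm, and in the mouse GATA6 is needed in the lung epithelium for airway branching and maturation. In mouse embryos Gata5 has been described in the heart and in the lung mesenchyme. FOG proteins (Zfpm1 and Zfpm2) bind GATA zinc fingers and change their activity.

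The table of RefSeq gene starts (GRCm38.p6) held 5 windows for 4 of the 6 genes (Gata1, Gata2, Gata3 and Gata5), matched by symbol. The 250 bases before the start are shown for Gata5 and Gata3. Among these 4 genes, only their signals did not overlap between the regions, higher in branching for Gata5 and lower for Gata3. Every Gata3 signal was at background, so no regional difference of Gata3 is read from this. Both lie on the minus strand, at chr2:180334680-180334929 for Gata5 and chr2:9878601-9878850 for Gata3. The sequences run 5′ to 3′, and capitals mark GC boxes, the letters GGGCGG searched on both strands.
Gata5: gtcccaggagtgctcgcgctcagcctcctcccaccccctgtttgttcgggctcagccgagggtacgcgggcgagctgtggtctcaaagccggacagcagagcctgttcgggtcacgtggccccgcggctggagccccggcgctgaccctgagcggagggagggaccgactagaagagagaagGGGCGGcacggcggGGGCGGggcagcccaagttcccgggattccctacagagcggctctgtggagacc
Gata3: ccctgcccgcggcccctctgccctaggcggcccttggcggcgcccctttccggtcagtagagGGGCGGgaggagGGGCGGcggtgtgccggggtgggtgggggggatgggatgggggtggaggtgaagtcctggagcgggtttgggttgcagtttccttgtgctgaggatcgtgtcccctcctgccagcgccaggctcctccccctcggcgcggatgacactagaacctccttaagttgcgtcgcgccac

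Both stretches were 70% G and C and held 2 GC boxes each. The same stretch held 1 GC box for Gata1 (54% G and C). The windows of Gata2 held 1 (67.2%) and 2 (74%), so GC boxes were not particular to Gata5 and Gata3. Of all 32851 windows in the table, 32.7% had a GC box in the same 250 bases. A GATA motif, the word GATA with A or T before it and A or G after it, was searched on both strands in the whole window of 300 bases, which runs 50 bases past the start. No match overlapped a GC box in these windows. Of the 5 windows, 1 held a match, that of Gata3, where TGATAG began at base 37 after the start (chr2:9878551-9878580, minus strand, motif in capitals).
Gata3 site: ctgcctggcgccgtctTGATAGtttcagaa
Of all 32851 windows, 29.8% held such a match. These are letters in a window of the reference and not measured binding.

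Signals are the deposited intensities on a linear scale. A signal was called at background when it did not exceed 147, a level that 95% of the 114 control values did not exceed, read from 19 probe sets against transcripts of bacteria and yeast. On the 6 arrays 57.9% to 61.2% of probe sets lay above it. These controls were brightest on non-branching replicate 2, with a median of 78.8, beside 19.8 to 40.7 elsewhere. Array medians ran from 212 to 229. Brightness also depends on the probes, so a probe set was compared between arrays, and its level was not read as an amount relative to another gene. Levels of different probe sets were set beside each other to call background, to leave out dim probe sets, to pick 1 probe set per gene and to sum lists. Of the 10 GATA probe sets, 3 were above background on all 6 arrays (Gata2, Gata4 and Gata6, 1 each), 5 on some arrays and 2 on none (Gata3 and the second probe set of Gata2).

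**Figure D1:**
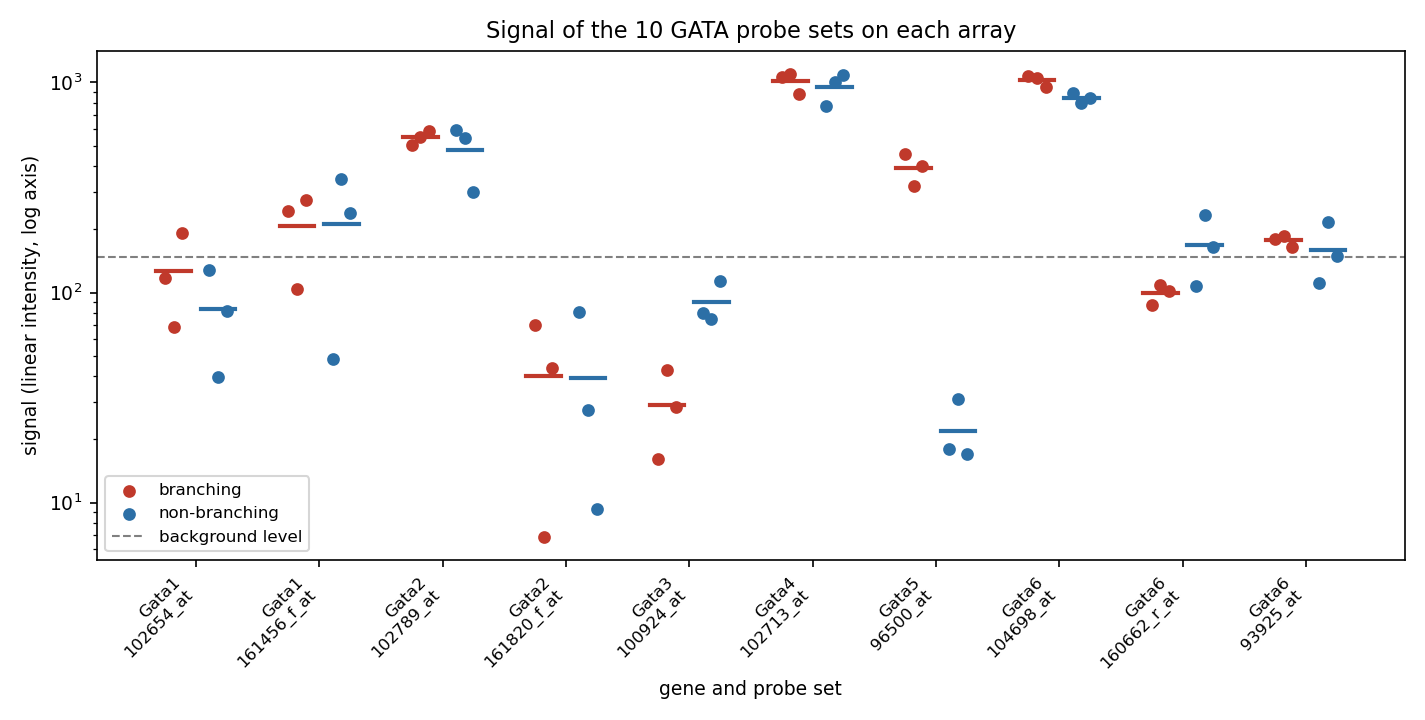
Signal of each GATA probe set on each array (linear intensity on a log axis), with branching arrays in red left of non-branching arrays in blue, a bar at each mean and the background level of 147 dashed. Gata4, Gata2 (102789_at) and Gata6 (104698_at) lie above background on every array, and Gata5 (96500_at) lies above it on the 3 branching arrays and below it on the 3 non-branching arrays.

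Gata5 (Entrez gene 14464, probe set 96500_at) had signals of 456.1, 322.1 and 400.2 on the branching arrays, against 18.1, 31.0 and 17.0 on the non-branching arrays. All branching arrays were above background and all non-branching arrays were far below it, with no overlap. The branching mean was 393 ± 67.3 and the non-branching mean 22.0 ± 7.78 (SD, n = 3 each). Because the non-branching values are at background, the fold is a lower bound. With each non-branching array raised to the background level, Gata5 was at least 2.64-fold higher in branching. The bound was 2.97-fold with each array's own control percentile as background, and 2.42-fold with each array's highest control value. Within a region Gata5 varied with a coefficient of variation of 17.1% in branching and 35.3% in non-branching, where the signals are too dim to be ordered. Gata5 passed the filter on dim probe sets (a mean log2 signal above 5.93) through the branching arrays, since its mean log2 signal was 8.60 in branching and 4.41 in non-branching. The array holds 1 probe set for Gata5, so it was measured once on each array.

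Gata6 (Entrez gene 14465) was read by 3 probe sets. The brightest, 104698_at, gave 1076.9, 1047.1 and 954.2 on the branching arrays, against 892.9, 800.1 and 839.9 on the non-branching arrays. The regions did not overlap, with a branching mean of 1026 ± 64 and a non-branching mean of 844 ± 46.6 (SD, n = 3 each). The log2 difference was 0.28 ± 0.13 (SE of the fit, n = 3 each), with a 95% interval of -0.02 to 0.58. This interval holds 0, and 51.3% of all probe sets tested had a smaller absolute difference.

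The second specific probe set of Gata6, 93925_at, gave 180.2, 186.5 and 163.8 on the branching arrays, against 111.4, 216.1 and 149.0 on the non-branching arrays. Here the regions overlapped, with a log2 difference of 0.21 ± 0.37 (95% interval -0.64 to 1.05). It ran from -0.02 without non-branching replicate 1 to 0.45 without non-branching replicate 2. The third, 160662_r_at, has a name that marks a less specific design. Its signals of 87.2, 108.6 and 101.4 on the branching arrays were all at background, against 107.3, 232.6 and 165.3 on the non-branching arrays, so no fold is given. The direction of its means was opposite to that of the other probe sets of Gata6, at 99.1 ± 10.9 in branching and 168 ± 62.7 in non-branching. Across the 6 arrays its log2 signals correlated at -0.87 with those of 104698_at, while 93925_at correlated with 104698_at at 0.10. These are descriptions over 6 arrays that share the difference between regions.

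Gata4 (Entrez gene 14463, probe set 102713_at) gave 1064.3, 1096.2 and 877.1 on the branching arrays, against 768.5, 1006.9 and 1086.2 on the non-branching arrays. All 6 values were above background and the regions overlapped. The means were 1013 ± 118 in branching and 954 ± 165 in non-branching, and the highest array was 1.43 times the lowest. The log2 difference was 0.09 ± 0.17 (SE, n = 3 each, 95% interval -0.29 to 0.48), and 19.7% of all probe sets tested had a smaller absolute difference. It was -0.05 without non-branching replicate 1.

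Among the blood-related members, Gata2 (Entrez gene 14461, probe set 102789_at) gave 502.1, 549.9 and 586.7 on the branching arrays, against 592.5, 541.4 and 299.8 on the non-branching arrays. Non-branching replicate 3 was the low array, while the other two non-branching arrays lay within or just above the branching range. That array also had the largest log2 difference between the 3′ and 5′ actin control probe sets, a sign of RNA quality. It was 0.75 there, beside 0.20 to 0.49 on the others. The same difference of the Gapdh control probe sets was -0.16 there, within the range of -0.17 to 0.06 on the others. The part of RNA quality in the Gata2 value was not tested. The means were 546 ± 42.4 in branching and 478 ± 156 in non-branching. The log2 difference was 0.25 ± 0.27 (95% interval -0.35 to 0.85) with all arrays, and -0.06 without non-branching replicate 3. The second Gata2 probe set, 161820_f_at, of a less specific design, stayed at background throughout, between 6.9 and 69.8 in branching and between 9.3 and 81.0 in non-branching. It did not pass the filter on dim probe sets.

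Gata1 (Entrez gene 14460) was read by 2 probe sets. The specific one, 102654_at, gave 117.5, 68.5 and 192.6 on the branching arrays, against 128.5, 39.5 and 81.6 on the non-branching arrays. A single value, on branching replicate 3, exceeded background, and both means were below it, so no fold is given. The less specific probe set 161456_f_at gave 244.5, 103.5 and 274.1 on the branching arrays, against 48.1, 348.0 and 239.9 on the non-branching arrays. In each region 2 of the 3 arrays were above background, and the ranges overlapped. Its mean signal was 207 ± 91.2 in branching and 212 ± 152 in non-branching, while the log2 difference was 0.26 ± 0.72 (95% interval -1.35 to 1.88), so means and log values differ in sign. That log2 difference ran from -0.60 without non-branching replicate 1 to 0.83 without non-branching replicate 2. Across the 6 arrays the log2 signals of the 2 Gata1 probe sets correlated at -0.23.

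Gata3 (Entrez gene 14462, probe set 100924_at) gave 16.2, 43.0 and 28.5 on the branching arrays, against 80.2, 75.0 and 113.8 on the non-branching arrays. Every branching value lay below every non-branching value, with means of 29.2 ± 13.4 in branching and 89.7 ± 21.1 in non-branching. All 6 values were at background, and the probe set did not pass the filter, so neither a fold nor a difference is given.

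**Figure D2:**
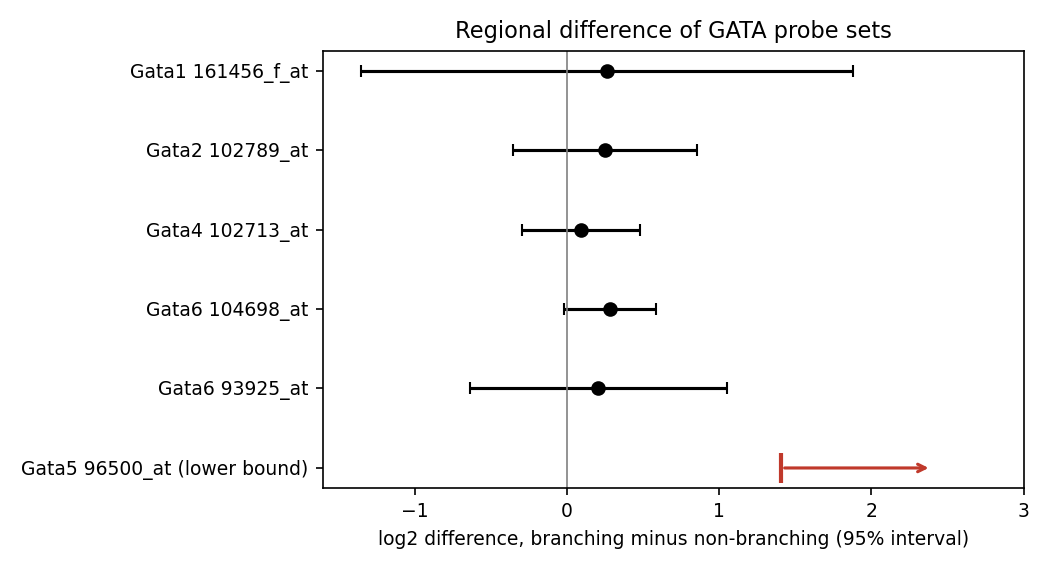
Log2 difference, branching minus non-branching, of the GATA probe sets with a mean above background in both regions (points, with 95% intervals of the fit over 9316 probe sets), and the lower bound for Gata5 (red tick and arrow, at least 2.64-fold). The intervals of Gata1, Gata2, Gata4 and both Gata6 probe sets include 0, from the narrowest for Gata6 104698_at (-0.02 to 0.58) to the widest for Gata1 161456_f_at (-1.35 to 1.88).

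Across all features, 9316 probe sets were tested with limma and 189 (2.03%) were called at an adjusted p under 0.05. Of the GATA probe sets, 8 were tested, covering 5 genes, and 1 was called, that of Gata5, higher in branching. The percentages called over all probe sets tested were 0.902% higher and 1.13% lower in branching. Since the choice of the family rests on this comparison, the count is a description. The median difference of the 8 tested GATA probe sets was 0.26, beside 0.00 over all 9316. The 8 include Gata5 and several probe sets of the same gene. Over all 9316 the median absolute difference was 0.27, so no shift of the family is read from this. The regions did not overlap for 3 of the 10 GATA probe sets (Gata5 and Gata6 104698_at higher, Gata3 lower in branching), and for 17.9% of all 12422 probe sets other than controls. Gata5 was not tested when the dimmer 50% were removed.

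To describe which genes vary over the arrays most like each member, Pearson correlations of log2 signal over the 6 arrays were taken with 5581 genes whose mean was above background. Gata5 was most like Mycn (r = 0.99), a MYC family transcription factor gene, and Fen1, a DNA replication endonuclease gene, Lama5, a laminin chain gene, Ran, a nuclear transport GTPase gene, and Mtm1, a lipid phosphatase gene read by a less specific probe set, with the fifth at r = 0.98. The branching mean of Mycn was 1086 ± 62.3 and its non-branching mean 602 ± 60.6 (SD, n = 3 each), and that of Fen1 was 821 ± 15.3 in branching, against 498 ± 39.5 in non-branching. Because the non-branching signals of Gata5 are at background, this order rests on values without an order of their own. With a floor of 64 in place of 16, 0 of the 5 genes were shared.

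**Figure D3:**
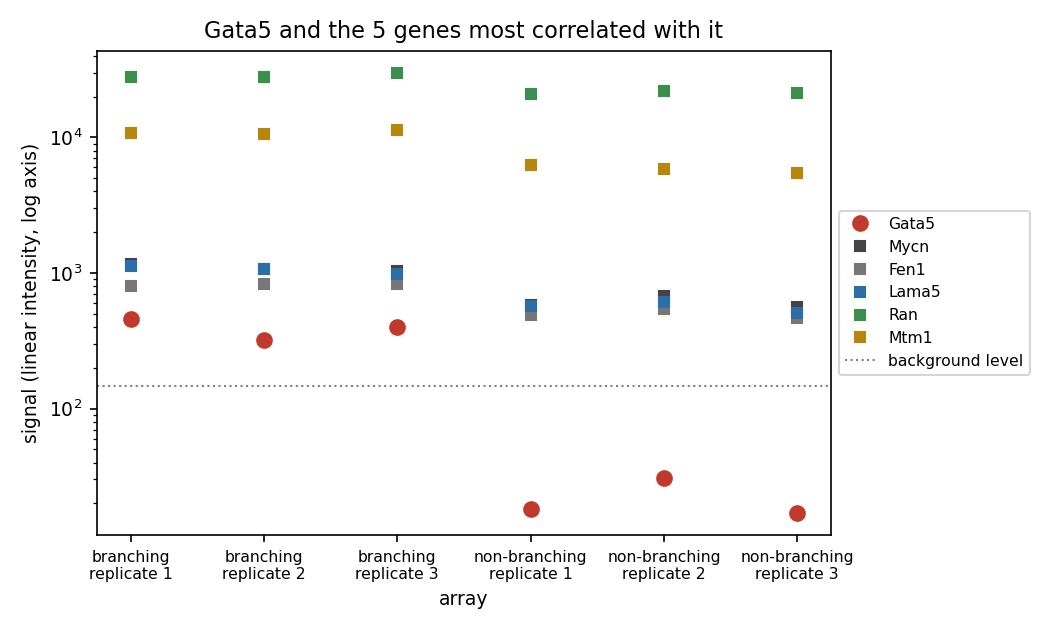
Signals (linear intensity on a log axis) on each array of Gata5 (red circles) and of the 5 genes most correlated with it (squares), with branching arrays on the left, non-branching arrays on the right and the background level of 147 dotted. All 5 genes are above background in both regions and lower in non-branching, whereas Gata5 is below background in non-branching.

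For Gata6 (104698_at) the 5 genes most alike were Smu1 (r = 0.99), Tubgcp4, Sh3gl1, Nectin2 and Polr3a (r = 0.97). For Gata4 they were Mylpf (r = 0.98), Cyhr1, Slc39a3, Gpd2 and Cdk11b (r = 0.97). For Gata2 they were Olfr70 (r = 0.99), Prss30, Fndc3a, Vegfb and Rexo2 (r = 0.98). All 5 were picked for following Gata2, so their lowest signal on non-branching replicate 3, the low array of Gata2, follows from that choice. For Gata1 (161456_f_at) they were Ero1a (r = 0.99), Cryzl2, Unc119b, She and Cd4 (r = 0.96). Each correlation rests on 6 arrays and is among the 5 highest of 5581 genes.

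Genes whose proteins act with GATA factors held no call, beside 2.03% called over all probe sets tested. In lists of this size that is not read as a result about them. Of 11 FOG cofactors and relatives with a GATA-type zinc finger, 5 were measured and tested and 0 were called (median log2 difference 0.19, beside 0.00 over all probe sets tested). At an unadjusted p under 0.05, 1 of them passed, Zfpm1. The share of all probe sets tested that passed this threshold was not taken. Such counts, here and in the lists below, are therefore only a description. Zfpm1, which encodes FOG1, the partner of GATA1, gave 822.9, 857.3 and 731.3 on the branching arrays, against 1060.6, 1083.4 and 900.8 on the non-branching arrays. The regions did not overlap, but the log2 difference of -0.33 ± 0.15 (SE, n = 3 each) did not pass (limma adjusted p = 0.337). Zfpm2, which encodes FOG2, the partner of GATA4 and GATA6 in the heart, had means of 125 in branching and 140.3 in non-branching, below background in both (named after its values were seen).

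Of the haematopoietic partners of GATA1 and GATA2, 13 were tested and 0 were called (median -0.21, and 0.05 without branching replicate 3), with 1 at an unadjusted p under 0.05. The smallest p was that of Crebbp, a histone acetyltransferase gene read by a less specific probe set, with 248 ± 171 in branching and 790 ± 466 in non-branching (limma adjusted p = 0.229). Of the cardiac and mesodermal partners of GATA4 to GATA6, 12 were tested and 0 were called (median -0.29), with 4 at an unadjusted p under 0.05. Tbx2, a T-box gene, had the smallest p there, at 3377 ± 347 in branching and 2782 ± 183 in non-branching (adjusted p = 0.278). A dimmer Tbx2 probe set differed by 0.03 (adjusted p = 0.959). Nkx2-5, the cardiac homeobox gene whose protein binds GATA4, was at background on all 6 arrays, with means of 58.8 in branching and 71.3 in non-branching.

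Genes of the lung epithelium and mesenchyme were read beside the labelled tissue. On single arrays 57.9% to 61.2% of all probe sets lay above background. The share above it on all 6 arrays was not taken. The counts here are therefore a description and do not establish the tissue. Of 21 epithelial and foregut genes measured, 13 were above background on all 6 arrays and 2, Sftpd and Foxa3, on none, and Nkx2-1, the homeobox gene of the lung epithelium, was not analysed here. Of 14 mesenchyme regulators measured, 10 were above background on all 6 arrays and 1, Fgf10, on none. Of 20 genes of the lung epithelium and foregut endoderm tested, 0 were called (median 0.02), with 9 at an unadjusted p under 0.05. That median was -0.30 without branching replicate 1 and -0.20 with the dimmer 50% left out. The summed signal of the list was 15307 to 16614.5 on the branching arrays, against 17930.6 to 18521.7 on the non-branching arrays. Sftpc, the surfactant protein C gene, was above background on all branching arrays and on 2 of 3 non-branching arrays, with a log2 difference of 1.99 ± 0.49 (limma adjusted p = 0.0807). It passed in 1 of the 6 omissions of an array, that of non-branching replicate 2, its lowest array, with a difference of 1.31 (adjusted p = 0.0364). The highest adjusted p over the omissions was 0.193, without branching replicate 3. Foxa2, an endodermal forkhead gene, gave 548 ± 26.5 in branching and 841 ± 32.7 in non-branching (adjusted p = 0.0751). Of 12 lung mesenchyme regulators tested, 4 rose in branching and 1 fell, and the other 7 did not pass (median 0.54). Over all probe sets tested, 0.902% were called higher and 1.13% lower. Hoxb5 and Hoxb6, homeobox genes of the mesenchyme, rose by 2.90 ± 0.41 and 1.82 ± 0.26 on the log2 scale (limma adjusted p = 0.00851 and 0.00923). Tcf21, a helix-loop-helix gene, fell by 1.38 ± 0.11 (adjusted p = 5.63e-04). The call of Hoxb6 was lost without branching replicate 3 (adjusted p = 0.0512). Of the 13 called genes named from the 14 lists, Tcf21, Vwf and Myh11 kept their call without the variance trend on the brightest probe set of each, and the other 10 did not.

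A dissected sample can hold other cell types, and 9 lists of their markers were read. Calls lay in 5 of these lists (red blood cells, heart muscle, endothelium, sympathetic neurons and neural crest, and smooth muscle). Over all probe sets tested 2.03% were called, 0.902% higher and 1.13% lower in branching. The part of any of these cell types in the GATA values was not tested. Red blood cell genes stand beside Gata1. Of 19 measured, 14 were above background on all 6 arrays and 3 on none (Fech, Epb42 and Car1), and the summed signal was 147123 to 161943 on the branching arrays, against 96905 to 104684 on the non-branching arrays. The 5 globin genes made up 91.2% to 94.05% of that sum, and the other 14 genes summed to 9349 to 9757 on the branching arrays, against 8419 to 9185 on the non-branching arrays. Of 16 tested, 4 rose in branching and 0 fell, and 12 did not pass (median 0.39). All 4 are globin genes. The embryonic and the adult type alpha globin genes Hba-x and Hba-a1 rose by 0.84 ± 0.09 and 0.82 ± 0.08 (limma adjusted p = 0.00158 for both) and passed whichever array was left out. The beta globin gene Hbb-b2 rose by 0.71 ± 0.12 (adjusted p = 0.0219), but passed in 1 of the 6 omissions of an array, that of branching replicate 1, and not with the replicate block (0.0678). Globin genes are near copies of each other, and their probe sets may share signal.

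Heart muscle genes stand beside Gata4, Gata5 and Gata6. Of 19 measured, 5 were above background on all 6 arrays and 7 on none, Myh6, Myl2, Myl3, Tnnc1, Ryr2, Csrp3 and Mybpc3. Their summed signal was 3960 to 4250 on the branching arrays, against 6197 to 6788 on the non-branching arrays. Of 13 tested, 2 fell and 0 rose, and 11 did not pass (median -0.43). Actc1, the cardiac actin gene on a less specific probe set, fell by 1.38 ± 0.22 (adjusted p = 0.0142), and its call was lost without non-branching replicate 1 (adjusted p = 0.0517), without non-branching replicate 3 (0.0588) and with the replicate block (0.0554). A second, less specific Actc1 probe set, with a mean at background in branching, was also called, at least 2.99-fold lower in branching (limma adjusted p = 0.0155). It passed in 3 of the 6 omissions of an array and without the variance trend (0.0420). By their less specific design both probe sets may share signal with other actin genes, which was not tested. Tnni1, a troponin gene of slow and embryonic muscle, fell by 0.70 ± 0.15 (adjusted p = 0.0480), and passed in 0 of the 6 omissions of an array and not with the replicate block (0.0934).

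Mesothelium is the cell sheet that covers the lung. Of 6 mesothelial genes measured, 3 were above background on all 6 arrays and 2, Msln and Podxl, on none. Their summed signal overlapped, at 1774 to 2008 on the branching arrays and 1435 to 1964 on the non-branching arrays. Of 4 tested, 0 were called (median 0.26) and 0 passed at an unadjusted p under 0.05. The uroplakin gene Upk3b had 981 ± 80.9 in branching and 816 ± 122 in non-branching (adjusted p = 0.478). Wt1, a zinc finger gene of the mesothelium, had 232 ± 66.3 in branching and 159 ± 7.56 in non-branching (adjusted p = 0.557).

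Endothelial genes, beside Gata2, were 1 lower and 16 not past the threshold of 17 tested (median -0.46), and 11 of 19 measured were above background on all 6 arrays and 3 on none. Their summed signal was 7505 to 8368 on the branching arrays, against 9478 to 9527 on the non-branching arrays. Vwf, the von Willebrand factor gene, had in branching at least 2.55-fold lower signal (limma adjusted p = 0.00851), a call lost without non-branching replicate 2 (adjusted p = 0.0604). Its other probe set was at background in both regions. Leukocyte and mast cell genes, which include Cpa3 and Kit, gave 0 calls of 12 tested (median 0.31) and 0 at an unadjusted p under 0.05. Of 21 measured, 3 were above background on all 6 arrays and 10 on none. Their summed signal was 3271 to 3975 on the branching arrays, against 3291 to 3448 on the non-branching arrays. The smallest p was that of Mpo, the myeloperoxidase gene on a less specific probe set, with a mean at background in non-branching (limma adjusted p = 0.374). A specific Mpo probe set went the other way, with means of 94.5 in branching and 137 in non-branching, both at background (adjusted p = 0.635).

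Beside Gata3, genes of sympathetic neurons and neural crest were 1 lower and 9 not past the threshold of 10 tested (median -0.11). Of 13 measured, 6 were above background on all 6 arrays and 4 on none, and the summed signal was 5272 to 5647 on the branching arrays, against 6374 to 6810 on the non-branching arrays. Sox10, a neural crest gene, fell by 1.05 ± 0.15 (limma adjusted p = 0.00974) and passed whichever array was left out. Its other probe set, with a mean at background in branching, did not pass (adjusted p = 0.371). Genes of the thymus, thyroid and parathyroid gave 0 calls of 5 tested (median -0.10) and 0 at an unadjusted p under 0.05. Of 8 measured, 3 were above background on all 6 arrays and 5 on none, and the summed signal was 1717 to 1956 on the branching arrays, against 1824 to 2170 on the non-branching arrays. The smallest p there was that of the thyrotropin receptor gene Tshr, at background on all 6 arrays (adjusted p = 0.542).

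Smooth muscle genes were the list with the most calls, beside 1.13% called lower over all probe sets tested. Of 11 tested, 6 fell, 0 rose and 5 did not pass (median -0.70). The summed signal was 9887 to 10496 on the branching arrays, against 16600 to 17916 on the non-branching arrays, with 8 of 11 genes above background on all 6 arrays and 2 on none. Myh11, the smooth muscle myosin gene, fell by 2.18 ± 0.23 (adjusted p = 0.00175), Acta2, the smooth muscle actin gene, by 1.29 ± 0.16 (adjusted p = 0.00503) and Cnn1, the calponin gene on a less specific probe set, by 2.02 ± 0.36 (adjusted p = 0.0225). The call of Cnn1 held in 2 of the 6 omissions of an array, those of branching replicates 1 and 2. Liver and gut genes, from organs in which GATA4 and GATA6 act, gave 0 calls of 5 tested (median 0.03) and 0 at an unadjusted p under 0.05. Of 11 measured, 0 were above background on all 6 arrays and 7 on none. The albumin gene Alb had the smallest p, with a mean at background in non-branching (adjusted p = 0.487), and the summed signal was 771 to 928 on the branching arrays, against 746 to 862 on the non-branching arrays.

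**Figure D4:**
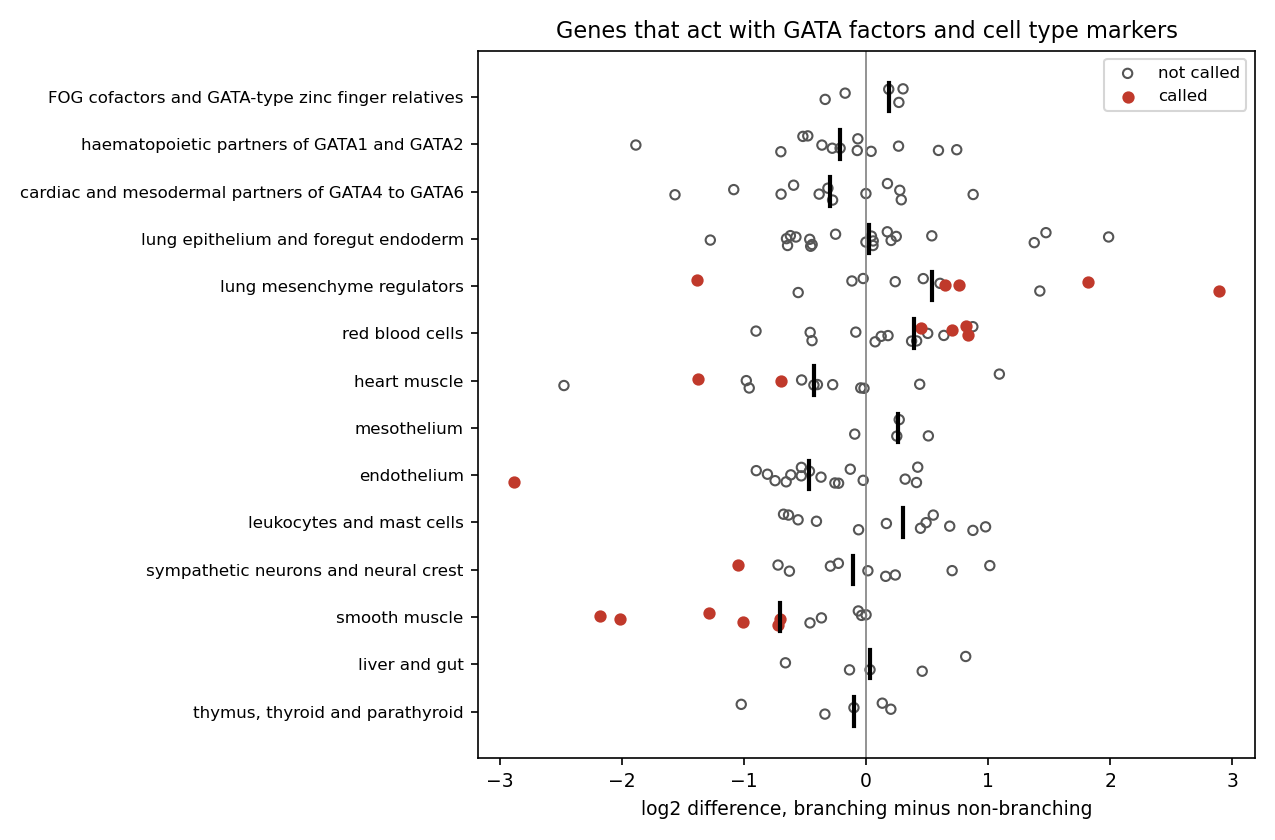
Log2 difference, branching minus non-branching, of each tested gene in 14 lists of GATA cofactors, partners and tissue markers, with genes called at an adjusted p under 0.05 filled and the median of each list as a black bar. Calls lie in lung mesenchyme regulators, red blood cells, heart muscle, endothelium, sympathetic neurons and neural crest, and smooth muscle. None lie in the 3 lists of GATA cofactors and partners, beside 2.03% called over all probe sets tested.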

How the data were processed

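RNA of 3 branching and 3 non-branching samples was measured on 1 array each. The deposited values are linear intensities, 1 per probe set and array. The steps by which the authors made them are not given in the sources used here. The mean of each array without its lowest and highest 2% of values was 500.3, so arrays had been scaled before deposit, as read from the values, and this scaling was kept. Of 12488 probe sets, 66 controls were left out, and of the other 12422 the platform's annotation gave 10833 a single symbol, 396 several and 1193 none. Of these, 10817 matched a RefSeq gene (GRCm38.p6).

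Values below 16 were set to 16, log2 was taken, the dimmest 25% by mean log2 signal were dropped, and 9316 were fitted with limma 3.58.1 in R 4.3.3 (2 groups, eBayes with a variance trend, two-sided, Benjamini-Hochberg over all tested, with calls at an adjusted p under 0.05). Every difference is branching minus non-branching, with the SE of that fit, and the floor understates them for dim genes. A gene was represented by its probe set of highest mean log2 signal. Where a region was at background on all arrays or in its mean, called genes have a lower bound and others no fold.

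The members, 14 gene lists, naming rule and alternatives were chosen with earlier results of these data known. Named genes were all members, in each list up to 3 called genes by size of change (if none was called, the gene of smallest p), Sftpc, Foxa2, Nkx2-5 and Wt1, and the 5 genes most alike for members above background on at least 3 arrays. List genes above background on no array were named after their values were seen.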

Additional observations from a re-analysis of the deposited data

How the results depend on the processing

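The 1 GATA call, of Gata5, rests on the comparison that chose the family, so its repeats say nothing about its stability. It was 0 where the dimmer 50% of probe sets were left out, because Gata5 was not tested. The bound for Gata5 uses the same values, so its range says nothing about stability either. That bound ran from 2.42-fold to 2.97-fold over the backgrounds, scalings and floors tried. Over the omissions of a branching array it ran from 2.44-fold to 2.91-fold. Omitting a non-branching array could not change it, since each was raised to the same background level. The 84 higher and 105 lower probe sets became 38 and 62 with no filter, 5 and 17 with no variance trend, and 164 and 195 at an adjusted p under 0.10. Over the omissions of an array the counts ran from 16 to 69 higher and from 38 to 98 lower. The 19 list genes called became 12 with no filter, 3 with no variance trend and 9 to 18 over the omissions of an array. Arrays of both regions share replicate numbers, but the deviations of same-numbered arrays from their region means correlated at -0.01 to 0.01. No shared variation by number was thus seen, and the labels do not say whether same-numbered samples came from the same embryos. With the number as a replicate block 44 probe sets were higher and 70 lower, and Hbb-b2, Actc1 and Tnni1 of the 13 named list genes lost their call. The cause was not tested. Of the 13 named list genes called, 3 passed without the variance trend (Tcf21, Vwf and Myh11) and 7 without the filter. Of the 5 genes most alike to Gata5, 3 were shared with median centring, 1 with quantile normalization, 4 with 16 added and 0 with a floor of 64, and for the other members 2 to 5 were shared. Depth in the sense of signal over background limits Gata3, the second probe set of Gata2 and the specific probe set of Gata1, for which a difference was not detectable on these arrays. The other probe set of Gata1 was above background on 4 of 6 arrays and is limited by its spread.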
